A study of Mus musculus with 21 samples.

Results

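The 9 genes that encode the subunits of AMP-activated protein kinase (AMPK) and its main upstream kinases were followed in mouse pancreatic islets. They were chosen by name, as the 7 subunit genes Prkaa1, Prkaa2, Prkab1, Prkab2, Prkag1, Prkag2 and Prkag3 and the kinase genes Stk11 and Camkk2, and they are 9 of 55536 genes listed in the count files. RNA-seq was performed on islets from CBA males on regular diet (RD), on high-fat diet (HFD) and on HFD formulated with the pan-AMPK activator O304 at 0.8 mg per g of diet (HFD-O304). Diets began at 10 weeks of age and lasted 9 weeks according to the methods, or 10 weeks according to the results text. Each of the 7 samples in a group was RNA from 150 islets picked by hand from a pool of 5 mice, so a sample is a pool and not an animal, and no genetic change was carried by any group. The question was which isoforms of each subunit islets transcribe, and whether these transcripts differed under HFD and under an activator that acts on the AMPK protein.

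AMPK is a kinase that senses falling cellular energy, and each complex holds a catalytic α subunit, a scaffolding β subunit that binds glycogen, and a γ subunit that binds AMP, ADP and ATP. The complex becomes active when an upstream kinase, LKB1 (Stk11) or CaMKK2 (Camkk2), phosphorylates a threonine in the activation loop of the α subunit. In β-cells the kinase is known to be active at low glucose and to be held back when glucose rises.

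The α isoforms are shown here by the coding stretch that holds this threonine, since it is the shared target of both upstream kinases. The sequences run from the first conserved motif of the loop to its last, 5′ to 3′ on the coding strand, with the codon of the threonine in capitals, and were read from GENCODE M21 transcripts (GRCm38).
Prkaa1: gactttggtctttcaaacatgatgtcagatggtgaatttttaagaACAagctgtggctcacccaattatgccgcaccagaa
Prkaa2: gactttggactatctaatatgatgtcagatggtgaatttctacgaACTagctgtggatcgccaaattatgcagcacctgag
The Prkaa1 stretch spans exons 4 and 5 of 9 (chr15:5168706-5170002, plus strand), and its threonine is residue 183 of the longest annotated protein. The Prkaa2 stretch also spans exons 4 and 5 of 9 (chr4:105049348-105051208, minus strand), with the threonine at residue 172. The stretches share 68 of 81 bases (84.0%), and their longest run of identical bases is 21, shorter than the 50-base reads. Over the whole transcripts no run of 50 bases was shared between any 2 of the 9 genes, so that reads of 1 paralog could be told from those of another.

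The largest differences were found in a gene of a regulatory subunit. Prkab2, the gene of β2, was lower in HFD islets than in RD islets and higher in HFD-O304 islets than in either other group. Prkag2, the gene of γ2, was lower in HFD islets than in both other groups, and Prkaa1 was higher in HFD-O304 than in HFD islets by a small amount. Of these differences, only those of Prkab2 and Prkag2 between HFD-O304 and HFD passed under every alternative run. The others were lost in some fits, as given with each gene below. The paralogs Prkab1, Prkag1 and Prkaa2 and both upstream kinases did not pass the test in any comparison, and Prkag3 was close to undetected.

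The islets held reads on genes in numbers from 13809266 to 48922569 per library, with a median of 38719302, and the shallowest library was HFD-O304 replicate 2. The labels conflict for HFD-O304 replicate 1, whose title places it in that group and whose diet field reads HFD. Replicates 1 to 4 and 5 to 7 carry different series of library numbers, and values within each set are given with the results that passed the test. β-cell markers summed to between 277010 and 343167 CPM (counts scaled to the size of the library) in every library, with all 10 markers detected. The 5 α-cell markers summed to between 21948 and 29183 CPM under RD, between 10314 and 17759 under HFD and between 25136 and 32832 under HFD-O304, and none was at 0. In HFD against RD islets 4 of these 5 were lower and 1 higher past the threshold (adjusted p under 0.01, edgeR). In HFD-O304 against HFD islets 4 were higher and 1 lower. Of all genes tested, 1.54% were called lower and 2% higher in HFD against RD. In HFD-O304 against HFD 5.08% of all genes were called higher and 6.79% lower. The 3 δ-cell markers summed to between 2324 and 3836 CPM under RD, between 1282 and 2841 under HFD and between 2459 and 4603 under HFD-O304. Of these, 2 of 3 were lower past the threshold in HFD against RD and 3 of 3 higher in HFD-O304 against HFD. Normalised counts of 1.35% of all genes did not overlap between HFD and RD, and those of 6.17% between HFD-O304 and HFD. The sums of the α-cell markers, like the counts of Prkab2 and Prkag2, were lowest in HFD with no overlap with the other groups. Their part in the results was not tested, and in such bulk samples fewer cells of a type and less RNA per cell cannot be told apart.

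Levels were first compared between genes as RPKM (reads per kb of annotated exon, scaled to the reads on genes of the library), which allows for gene length. With the length of all annotated exons, Prkaa1 was the highest in RD islets, at 23.3 ± 2.51 (SD, n = 7), followed by Prkag1 at 19.6 ± 0.688, Stk11 at 14.4 ± 1.10 and Prkab1 at 10.7 ± 0.364. Prkag2 followed at 6.83 ± 0.339, Prkab2 at 2.854 ± 0.251, Prkaa2 at 2.851 ± 0.319 and Camkk2 at 1.91 ± 0.169. The ranges over the 7 libraries of neighbours in this order did not overlap, except for Prkab2 and Prkaa2, which could not be ordered. The order in HFD islets differed in that Prkag1, at 20.2 ± 0.894, stood beside Prkaa1, at 19.5 ± 1.92, with overlapping ranges. Prkab2 in HFD islets was at 2.05 ± 0.242 and could not be told apart from Prkaa2 above it, at 2.56 ± 0.259, or from Camkk2 below it, at 2.02 ± 0.225. In HFD-O304 islets Prkab2 was at 3.71 ± 0.320, with every library above the highest value of Prkaa2, while Prkaa1 (24.5 ± 1.48) and Prkag1 (22.4 ± 0.963) overlapped. This order rests on the length given to each gene. With the longest transcript, Prkag1 stood above Prkaa1, at 25.8 ± 0.905 in RD with overlapping ranges, and at 26.6 ± 1.18 in HFD and 29.4 ± 1.27 in HFD-O304 with none. Camkk2 was then at 4.29 ± 0.381 under RD, 4.54 ± 0.505 under HFD and 4.32 ± 0.416 under HFD-O304, above Prkaa2 in each group and above Prkab2 without overlap in RD and HFD. With counts that ignore strand Prkag1 was the fifth of the genes, below Prkag2, in each group.

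**Figure D1:**
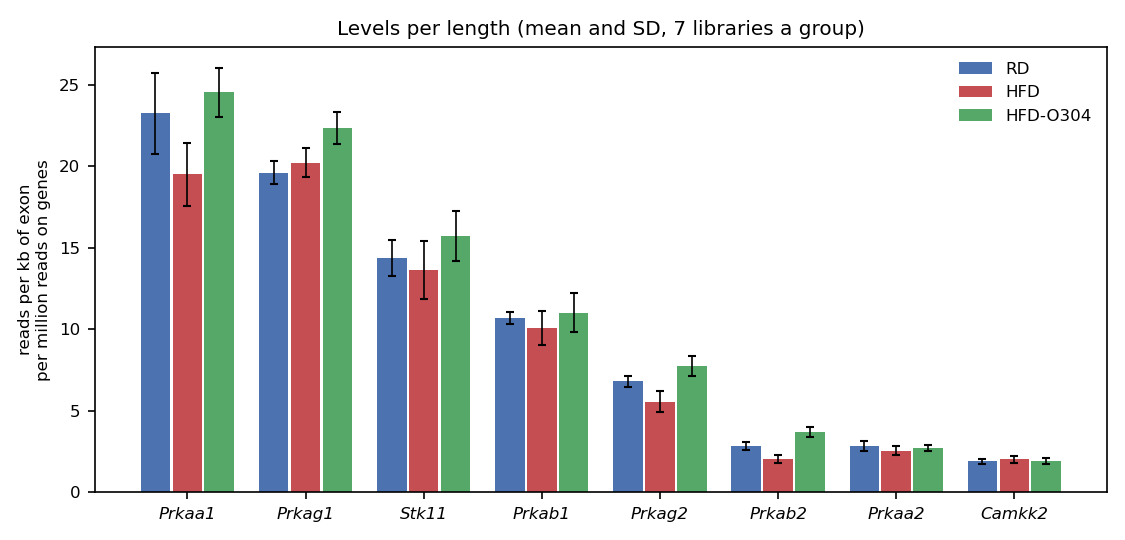
RPKM (reads per kb of exon, scaled to the reads on genes of the library) for the 8 detected genes, as the mean of 7 libraries in each of RD, HFD and HFD-O304 with the SD as error bar. With this length Prkaa1 and Prkag1 are near 20 or above in each group, and Camkk2 is close to 2.

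Prkaa1 made up most of the α transcripts. Its share of the α sum was 89.1% ± 0.667 under RD, 88.4% ± 0.624 under HFD and 89.9% ± 0.516 under HFD-O304 (SD, n = 7 in each), with Prkaa2 as the rest. Prkab1 held 79.0% ± 1.28 of the β sum under RD, 83.1% ± 1.27 under HFD and 74.8% ± 2.04 under HFD-O304. Prkab2 thus held between 19.6% and 23.0% in the RD libraries, between 14.1% and 17.8% in HFD and between 23.1% and 29.0% in HFD-O304, with no overlap among the groups. Prkag1 held 74.2% ± 1.26 of the γ sum under RD, 78.4% ± 2.17 under HFD and 74.2% ± 1.80 under HFD-O304, and the share of Prkag2 was 25.8% ± 1.26, 21.6% ± 2.17 and 25.8% ± 1.79. The β and γ shares rest on the length given to each gene. With the longest transcript in place of all exons, Prkab1 held 84.4%, 87.7% and 81.0% and Prkag1 66.0%, 71.1% and 66.0% in RD, HFD and HFD-O304, while the α shares stayed as given.

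**Figure D2:**
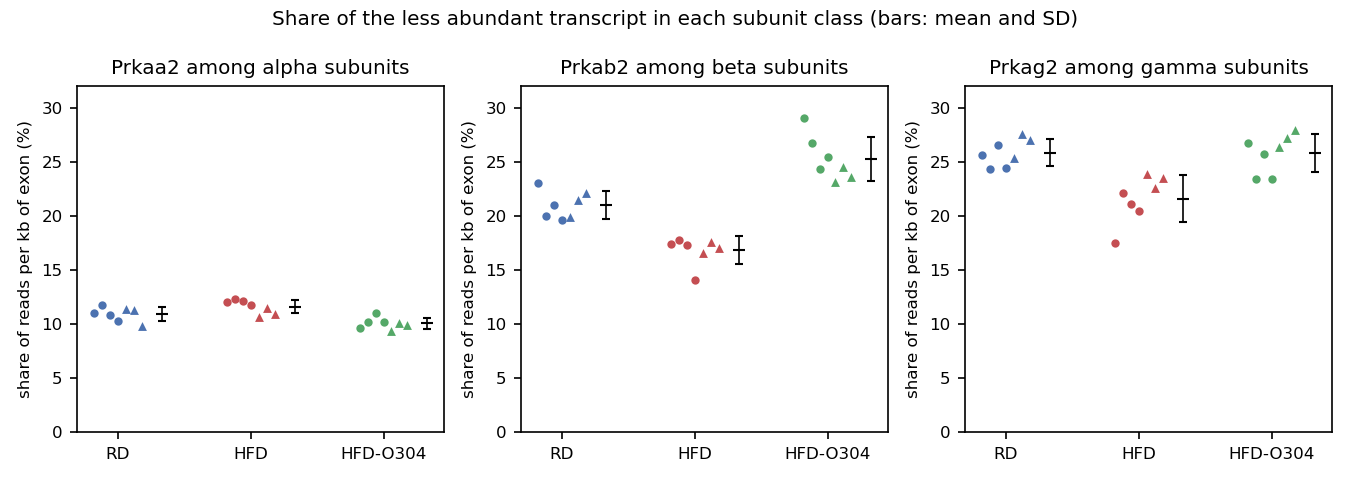
Share (%) of Prkaa2, Prkab2 and Prkag2 in the summed reads per kb of exon of their subunit class, by library. Circles are replicates 1 to 4, triangles replicates 5 to 7, and bars the mean and SD of 7 libraries. The Prkab2 share does not overlap between groups, from 14.1 to 17.8% in HFD and from 23.1 to 29.0% in HFD-O304.

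Whether the balance of paralogs differed between groups was tested on the log2 ratio of their counts in each library, in which library size cancels. The exact two-sided permutation test was used, with Benjamini-Hochberg adjustment over 9 comparisons, and the smallest p it can give is 0.000583. The log2 ratio of Prkab1 to Prkab2 was 1.18 ± 0.11 under RD, 1.57 ± 0.14 under HFD and 0.84 ± 0.15 under HFD-O304 (SD, n = 7). All 3 comparisons gave the smallest p (adjusted p = 0.00131, exact permutation test), with differences of 0.39 for HFD against RD, -0.74 for HFD-O304 against HFD and -0.34 for HFD-O304 against RD. No library of a group overlapped those of another, the nearest being HFD-O304 at 0.999 and RD at 1.01. Within replicates 1 to 4 the 3 differences were 0.40, -0.84 and -0.44, and within replicates 5 to 7 they were 0.38, -0.59 and -0.21, where 3 samples against 3 cannot reach the threshold.

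The log2 ratio of Prkag1 to Prkag2 was -0.05 ± 0.09 under RD, 0.29 ± 0.19 under HFD and -0.05 ± 0.14 under HFD-O304. It was higher in HFD than in RD by 0.34 (adjusted p = 0.00131, exact permutation test), with no overlap, and lower in HFD-O304 than in HFD by -0.34 (adjusted p = 0.00525, exact permutation test), with overlap. HFD-O304 and RD differed by 0.002379 (adjusted p = 0.973, exact permutation test). Restricted to replicates 1 to 4, the 2 differences that passed were 0.41 and -0.38, and within replicates 5 to 7 they were 0.26 and -0.30.

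The log2 ratio of Prkaa1 to Prkaa2 was 2.25 ± 0.10 under RD, 2.15 ± 0.09 under HFD and 2.38 ± 0.08 under HFD-O304. It was higher in HFD-O304 than in HFD by 0.23 (adjusted p = 0.00315, exact permutation test) and than in RD by 0.13 (adjusted p = 0.0307, exact permutation test). The latter was lost when RD replicate 5 or 6 or HFD-O304 replicate 1 (adjusted p = 0.0539, exact permutation test) or HFD-O304 replicate 5 (0.0577) was left out. HFD and RD differed by -0.10 (adjusted p = 0.0806, exact permutation test), a difference that passed without RD replicate 2 (adjusted p = 0.0457, exact permutation test) or HFD replicate 5 (0.0334). Within replicates 1 to 4 and 5 to 7 the difference of HFD-O304 from HFD was 0.26 and 0.19, and that from RD was 0.11 and 0.16. The latter call was lost in replicates 1 to 4 (adjusted p = 0.1286, exact permutation test), and replicates 5 to 7 are too few for any call.

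Single genes were then compared between groups as normalised read counts, with edgeR's quasi-likelihood test over all genes and a Benjamini-Hochberg adjusted p under 0.01 as the threshold. Prkag3 had too few reads for the test, and the other 8 genes were tested among 27229. Of these 8, 2 were called in HFD against RD, both lower, where 3.54% of all genes tested were called and 1.54% were called lower. In HFD-O304 against HFD 3 were called, all higher, where 11.9% of all genes were called and 5.08% were called higher. In HFD-O304 against RD 1 was called, higher, where 1.31% of all genes were called and 0.404% were called higher. These shares, and those given below, are over all 27229 genes, which include genes with few reads. A stricter filter on low counts (filterByExpr of edgeR) left 17788 genes and called the same members. The shares of all genes called were then larger, at 6.4% in HFD against RD, 19.7% in HFD-O304 against HFD and 2.21% in HFD-O304 against RD. The median log2 fold change over all genes was -0.0044, 0.03 and 0.0078 in the 3 comparisons. Each group enters 2 of the 3 comparisons, which are therefore not independent. With library totals in place of TMM scaling, every log2 fold change would shift by 0.101 in HFD-O304 against HFD, by 0.0530 in HFD-O304 against RD and by -0.0484 in HFD against RD.

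**Figure D3:**
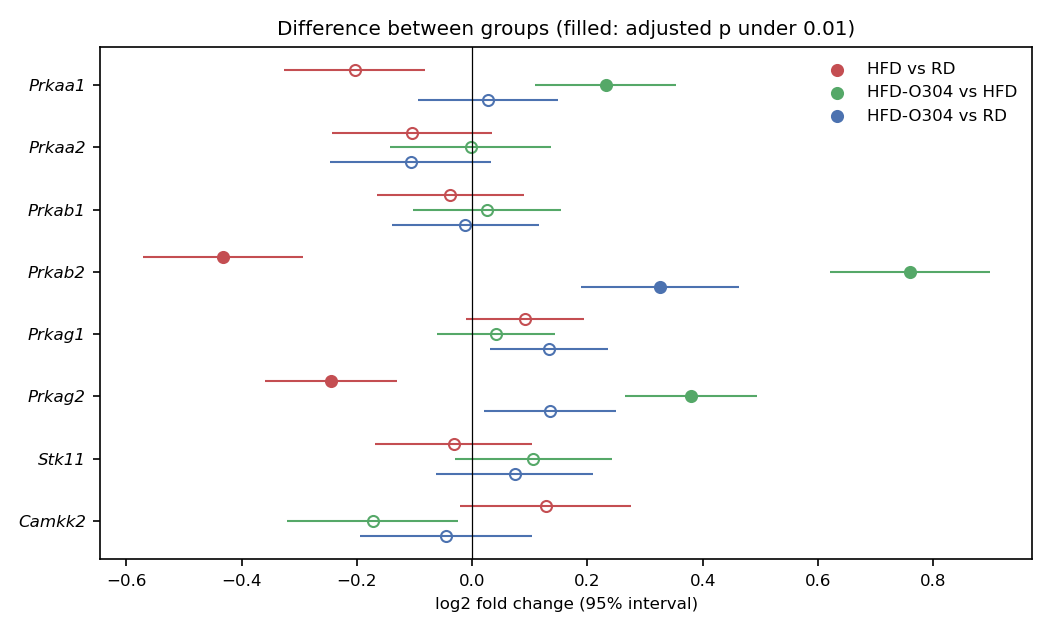
log2 fold change of each gene in HFD against RD (red), HFD-O304 against HFD (green) and HFD-O304 against RD (blue), with its 95% interval from edgeR. Filled points passed an adjusted p under 0.01. Prkab2 has the widest separation, from -0.43 to 0.76, and the points of Prkab1 stay within 0.04 of 0.

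Of the catalytic subunits, Prkaa1 (ENSMUSG00000050697, GRCm38 chromosome 15, 5143861 to 5181899, plus strand) encodes α1. Its normalised count ranged from 3502 to 4315 under RD (median 3882), from 3042 to 3839 under HFD (median 3367) and from 3741 to 4308 under HFD-O304 (median 4048). The groups overlapped, and 4 of 7 HFD-O304 libraries lay above the highest HFD library, HFD replicate 7. Prkaa1 was 1.17-fold higher in HFD-O304 than in HFD islets (log2 fold change 0.23, SE 0.0595, adjusted p = 0.00593, edgeR). This call was near the threshold and was lost without HFD replicate 3, 4 or 5 or without HFD-O304 replicate 2, 4, 5 or 6, with adjusted p between 0.0110 and 0.0240. It was also lost within replicates 1 to 4 (log2 fold change 0.24, adjusted p = 0.0341) and within replicates 5 to 7 (0.20, adjusted p = 0.0894).

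Against RD, Prkaa1 in HFD islets had a log2 fold change of -0.20 (SE 0.0594, adjusted p = 0.0310, edgeR), which did not pass, and 5 of 7 HFD libraries lay below the lowest RD library. Without HFD replicate 7 it passed (adjusted p = 0.00969). Within replicates 1 to 4 the log2 fold change was -0.14 and within replicates 5 to 7 it was -0.27. The RD libraries of replicates 5 to 7 all lay at 4159 or above, and those of replicates 1 to 4 at 3882 or below. HFD-O304 against RD gave 0.03 for Prkaa1 (95% interval -0.09 to 0.15, adjusted p = 0.904, edgeR).

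Prkaa2 (ENSMUSG00000028518, chromosome 4, 105029874 to 105109890, minus strand) encodes α2, the other catalytic isoform. Normalised counts of the gene ranged from 740 to 942 under RD (median 806), from 664 to 871 under HFD (median 781) and from 696 to 836 under HFD-O304 (median 787). The groups overlapped throughout. The 95% intervals of the log2 fold change were -0.24 to 0.03 for HFD against RD, -0.14 to 0.14 for HFD-O304 against HFD and -0.25 to 0.03 for HFD-O304 against RD, and the smallest adjusted p was 0.420 (edgeR).

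Of the β subunits, which tether α to γ, Prkab2 (ENSMUSG00000038205, chromosome 3, 97658193 to 97673812, plus strand) had the largest differences among the 9 genes. In normalised counts it ranged from 491 to 591 under RD (median 521), from 345 to 435 under HFD (median 395) and from 586 to 727 under HFD-O304 (median 660). Every HFD library was below every RD library and every HFD-O304 library, and only HFD-O304 replicate 3, the lowest of its group, lay within the range of RD, below RD replicate 1. Non-overlap of this kind was found for 1.35% of all genes in HFD against RD and for 6.17% in HFD-O304 against HFD.

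Prkab2 was 0.741-fold in HFD relative to RD islets (log2 fold change -0.43, SE 0.0677, adjusted p = 0.000204, edgeR). It was 1.69-fold higher in HFD-O304 than in HFD islets (log2 fold change 0.76, SE 0.0676, adjusted p = 8.45e-09, edgeR), a call that held in all 21 fits that left out a library. In HFD-O304 it was also 1.25-fold higher than in RD islets (log2 fold change 0.33, SE 0.0668, adjusted p = 0.00459, edgeR), with 6 of 7 libraries above the highest RD library. This last call was lost without HFD-O304 replicate 1, the library with conflicting labels (log2 fold change 0.30, adjusted p = 0.0149), and without HFD-O304 replicate 5 (0.0101) or 6 (0.0126) or RD replicate 5 (0.0124) or 6 (0.0123). Without that HFD-O304 replicate 1, Prkab2 in HFD-O304 against HFD was at 0.73 (adjusted p = 5.02e-08, edgeR).

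Within replicates 1 to 4 the log2 fold changes of Prkab2 were -0.54 (adjusted p = 0.00197) for HFD against RD, 0.83 (1.10e-05) for HFD-O304 against HFD and 0.29 (0.179) for HFD-O304 against RD. Within replicates 5 to 7 they were -0.29 (adjusted p = 0.0464), 0.66 (7.27e-05) and 0.37 (0.0218), by edgeR as before. The direction was thus the same in both sets, and the difference between HFD-O304 and HFD passed in each.

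Prkab1 (ENSMUSG00000029513, chromosome 5, 116013586 to 116024508, minus strand) encodes β1 and had the more abundant transcript of the β genes per length. Its normalised count ranged from 1099 to 1255 under RD (median 1201), from 1024 to 1272 under HFD (median 1177) and from 1070 to 1320 under HFD-O304 (median 1139). The log2 fold changes were -0.04 for HFD against RD (95% interval -0.17 to 0.09), 0.03 for HFD-O304 against HFD (-0.10 to 0.15) and -0.01 for HFD-O304 against RD (-0.14 to 0.12), with adjusted p of 0.810, 0.845 and 0.968 (edgeR). The intervals leave out a change of the size seen for Prkab2 in HFD-O304 against HFD. The paralog ratio above gives the test of that difference.

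Since the β genes differed in this way, the bases just before their starts were set side by side. The stretches lie upstream of both the RefSeq and the GENCODE start and come from the RefSeq promoter table (GRCm38.p6), 5′ to 3′ on the strand of the gene, with matches to the GC box GGGCGG, on either strand, in capitals.
Prkab1: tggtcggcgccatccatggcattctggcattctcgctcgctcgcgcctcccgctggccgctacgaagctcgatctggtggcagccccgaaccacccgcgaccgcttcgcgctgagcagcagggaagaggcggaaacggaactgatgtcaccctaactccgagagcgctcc
Prkab2: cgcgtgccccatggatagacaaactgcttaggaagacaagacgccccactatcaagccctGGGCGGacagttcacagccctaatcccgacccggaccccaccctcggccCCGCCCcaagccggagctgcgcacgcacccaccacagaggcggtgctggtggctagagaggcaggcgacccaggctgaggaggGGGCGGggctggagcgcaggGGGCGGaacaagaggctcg
The Prkab1 stretch (chr5:116024509-116024678, minus strand) is 170 bases long with 65.9% G and C, and that of Prkab2 (chr3:97657962-97658192, plus strand) is 231 bases long with 68.4%. The Prkab2 stretch holds 4 matches to GGGCGG, and 30.0% of 32851 RefSeq promoters hold at least 1 in a window of its length. The share that holds 4 or more, and the share among promoters of like G and C content, were not counted. The Prkab1 stretch holds 0, where 19.5% of promoters hold it in a window of that length. Neither holds the CCAAT box CCAAT, the E-box CACGTG or the CRE TGACGTCA, searched on both strands. At the length of the Prkab2 window these were found in 32.3%, 5.37% and 1.30% of promoters, and at that of Prkab1 in 23.3%, 3.38% and 0.493%. A match is a description of letters and says nothing of binding or of the differences in counts.

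Of the γ subunits, which read the nucleotide balance, Prkag2 (ENSMUSG00000028944, chromosome 5, 24862744 to 25100642, minus strand) followed Prkab2 in direction with smaller differences. Normalised counts of the gene ranged from 1538 to 1694 under RD (median 1613), from 1153 to 1534 under HFD (median 1338) and from 1643 to 1905 under HFD-O304 (median 1760). The HFD libraries lay below all libraries of both other groups, the highest of them, HFD replicate 7, just under the lowest RD library, and HFD-O304 and RD overlapped. Groups did not overlap for 1.35% of all genes in HFD against RD and for 6.17% in HFD-O304 against HFD.

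Prkag2 was 1.30-fold higher in HFD-O304 than in HFD islets (log2 fold change 0.38, SE 0.0559, adjusted p = 1.36e-05, edgeR), and this call held in all 21 fits without a library. Within replicates 1 to 4 and within replicates 5 to 7 it was 0.38 (adjusted p = 0.00219) and 0.37 (0.00135). In HFD relative to RD islets Prkag2 was 0.844-fold (log2 fold change -0.25, SE 0.0559, adjusted p = 0.00605, edgeR). That call was lost without RD replicate 1, 3, 5, 6 or 7 or HFD replicate 1, 2, 3, 4 or 6, with adjusted p between 0.0105 and 0.0170. In replicates 1 to 4 alone it was at -0.29 (adjusted p = 0.0289) and within replicates 5 to 7 at -0.18 (0.116). Against RD, Prkag2 in HFD-O304 islets was at 0.13 (95% interval 0.02 to 0.25, adjusted p = 0.239, edgeR), with 5 of 7 libraries above the highest RD library.

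Prkag1 (ENSMUSG00000067713, chromosome 15, 98812797 to 98831521, minus strand) encodes γ1. In normalised counts it ranged from 1420 to 1631 under RD (median 1576), from 1537 to 1823 under HFD (median 1677) and from 1597 to 1808 under HFD-O304 (median 1692). The groups overlapped, with 5 of 7 HFD and 4 of 7 HFD-O304 libraries above the highest RD library. The log2 fold changes were 0.09 for HFD against RD (95% interval -0.01 to 0.19), 0.04 for HFD-O304 against HFD (-0.06 to 0.14) and 0.13 for HFD-O304 against RD (0.03 to 0.24). None of these passed (adjusted p = 0.304, 0.658 and 0.175, edgeR). The antisense gene B130046B21Rik covers 43.7% of the exon bases of Prkag1, and the counts used here take 1 strand. In counts that ignore strand, reads that touch both genes are dropped, and the share of Prkag1 in the γ sum was 34.4% under RD, 40.3% under HFD and 34.3% under HFD-O304.

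Prkag3 (ENSMUSG00000006542, chromosome 1, 74738922 to 74749221, minus strand) encodes γ3, known as the isoform of fast skeletal muscle. It had 4 reads in all 789394089 reads on genes, 1 under RD, 1 under HFD and 2 under HFD-O304, and never more than 1 in a library. A count of 0 in a library allows up to 3 reads, between 0.0613 and 0.217 CPM depending on depth, a limit that covers counting error only. Markers of skeletal muscle summed to between 2.03 and 3.85 CPM, and 1 of 5 was at 0 in each group as a whole.

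**Figure D4:**
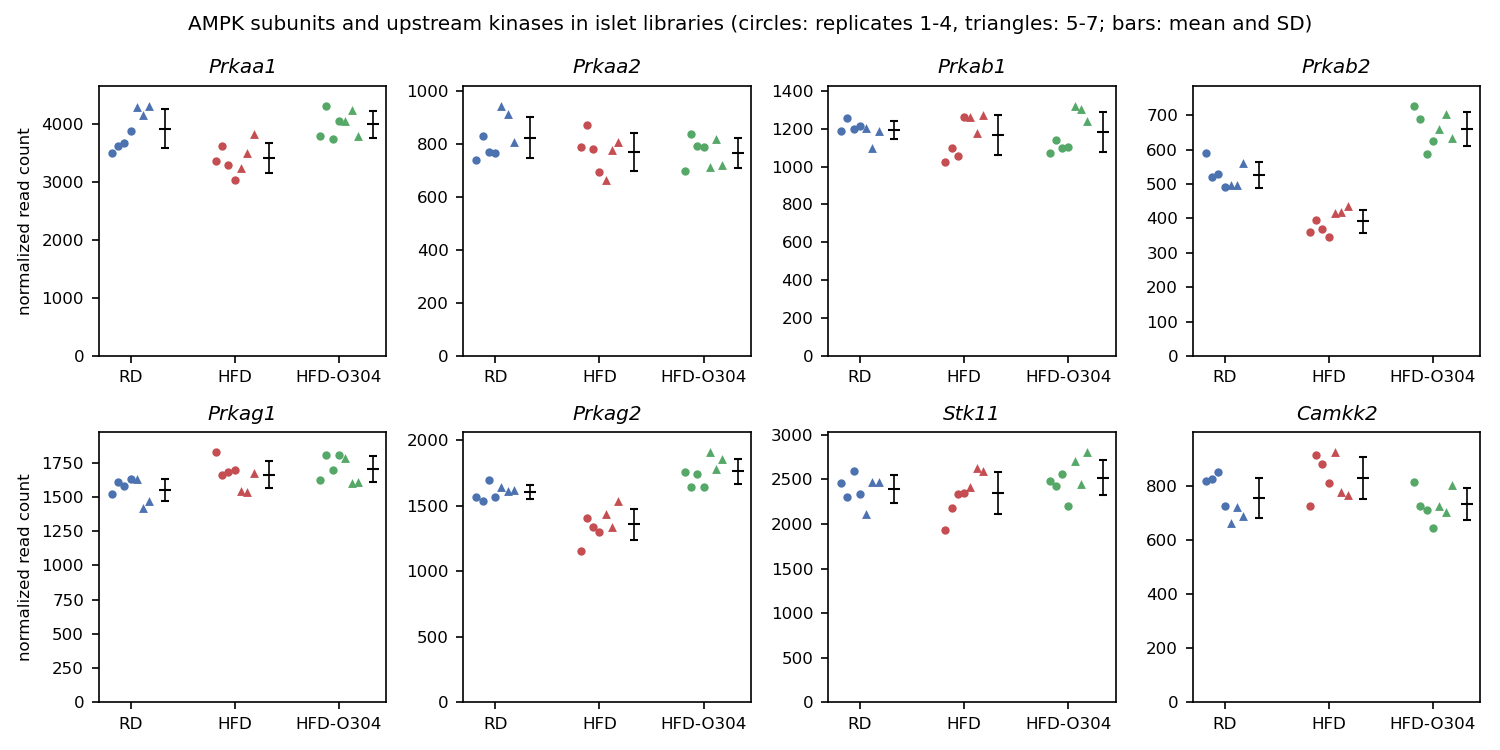
Normalised read count of each gene by library in RD, HFD and HFD-O304. Circles are replicates 1 to 4, triangles replicates 5 to 7, and bars the mean and SD of 7 libraries. Prkab2 is lowest in HFD, from 345 to 435, and highest in HFD-O304, from 586 to 727, whereas Prkab1 lies between 1024 and 1320 in all groups.

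The upstream kinases did not pass in any comparison, by edgeR or by DESeq2, and at an unadjusted p under 0.05 only Camkk2 in HFD-O304 against HFD was found. Stk11 (ENSMUSG00000003068, chromosome 10, 80115803 to 80130682, plus strand), which encodes LKB1, ranged from 2113 to 2597 normalised counts under RD (median 2462), from 1928 to 2623 under HFD (median 2348) and from 2196 to 2800 under HFD-O304 (median 2475). Its log2 fold changes were -0.03 (95% interval -0.17 to 0.10), 0.11 (-0.03 to 0.24) and 0.07 (-0.06 to 0.21) for HFD against RD, HFD-O304 against HFD and HFD-O304 against RD, with adjusted p of 0.854, 0.316 and 0.684 (edgeR). In HFD islets Stk11 was lower in replicates 1 to 4 than in replicates 5 to 7, and its difference from RD was -0.14 in the first set and 0.11 in the second.

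Camkk2 (ENSMUSG00000029471, chromosome 5, 122731170 to 122779409, minus strand) encodes the kinase that acts on AMPK when calcium rises. Its normalised count ranged from 665 to 853 under RD (median 728), from 727 to 926 under HFD (median 811) and from 645 to 817 under HFD-O304 (median 729). Its log2 fold changes were 0.13 in HFD against RD (adjusted p = 0.334), -0.17 in HFD-O304 against HFD (95% interval -0.32 to -0.02, adjusted p = 0.1002) and -0.05 in HFD-O304 against RD (adjusted p = 0.857, edgeR), and none of these passed. In 3 of 7 HFD-O304 libraries it lay below the lowest HFD library.

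The 8 detected genes were even across libraries of a group. Their coefficients of variation ran from 3.33%, for Prkag2 in RD, to 10.2%, for Stk11 in HFD. The genes whose log2 CPM followed a member most closely over the 21 libraries, among 13215 genes with at least 50 normalised counts on average, are given as a description. For Prkaa1 these were Slc4a7 (Pearson r = 0.950), Efr3a (0.949) and Rrm2b (0.947), and r was 0.906, 0.897 and 0.935 after group means were removed. For Prkaa2 they were Manea (0.846), Tug1 (0.789) and Ppm1b (0.787), with 0.822, 0.782 and 0.763 after that step. For Prkab2 they were Usp11 (0.960), Vldlr (0.958) and Trpm5 (0.955), with 0.674, 0.608 and 0.577. The libraries share their groups and sets, and nothing is said here of shared control.

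The other genes of the pathway were read from lists. None of the 10 LKB1 partners and other upstream kinases was called by edgeR in any comparison, with medians of 0.04, -0.03 and -0.01 (log2) for HFD against RD, HFD-O304 against HFD and HFD-O304 against RD. At an unadjusted p under 0.05 there were 4, 3 and 1, and DESeq2 called 0, 1 and 0. Of all genes tested, DESeq2 called 6.46%, 14.9% and 2.67% in the same comparisons, shares that stand beside each list below as well. The share of all genes at an unadjusted p under 0.05 is not reported here. Likewise none of the 12 AMPK-related kinases that depend on LKB1 was called by edgeR, with medians of -0.04, 0.02 and 0.01. There 3, 3 and 2 had an unadjusted p under 0.05, and DESeq2 called 1, Nuak1 in HFD against RD. Nuak1 is named after its values were seen. Of 9 phosphatase genes that act on AMPK, with medians of -0.03, -0.05 and -0.00061, 1 was called, in HFD-O304 against RD, where 0.903% of all genes tested were called lower. At an unadjusted p under 0.05 there were 4, 2 and 2, and DESeq2 called 0, 0 and 1. The called gene was Ppp1r3c, which targets protein phosphatase 1 to glycogen, at 220 ± 36.8 normalised counts in HFD-O304 and 362 ± 58.8 in RD (log2 fold change -0.71, adjusted p = 0.00824, edgeR).

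Among the lysosomal and nutrient regulators of AMPK, 5 of 14 were called in HFD-O304 against HFD, where 6.79% of all genes were called lower and 5.08% higher. Of these 4 were higher and 1 lower, with a median of 0.17, and in HFD against RD, where 1.54% of all genes were called lower, 1 was lower, with a median of -0.06, and DESeq2 called 2. In HFD-O304 against RD 0 of 14 were called by edgeR or DESeq2 and 2 had an unadjusted p under 0.05, with a median of 0.10. Fnip2, a folliculin partner at the lysosome, was at 2143 ± 255 under RD, 1471 ± 354 under HFD and 2336 ± 237 under HFD-O304. It was lower in HFD than in RD by a log2 fold change of -0.55 (adjusted p = 0.00327, edgeR) and higher in HFD-O304 than in HFD by 0.67 (adjusted p = 9.71e-05, edgeR). Its paralog Fnip1 was higher in HFD-O304 than in HFD by 0.39 (adjusted p = 0.00276, edgeR), as was Sesn1, a stress-inducible sestrin, by 0.28 (adjusted p = 0.00448, edgeR). Lamtor2, a subunit of the Ragulator complex, was lower, at -0.33 (adjusted p = 0.00288, edgeR). The fifth gene, Axin1, a scaffold that brings LKB1 to AMPK, was higher by 0.21 (adjusted p = 0.00460, edgeR) and is named after its values were seen.

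Of 10 tested genes of adenine nucleotide balance, 2 were lower in HFD-O304 than in HFD, where 6.79% of all genes were called lower, and none was called by edgeR in the other comparisons, with medians of 0.02, -0.04 and -0.01. In HFD against RD 4 had an unadjusted p under 0.05 and DESeq2 called 3, and in HFD-O304 against RD these counts were 3 and 0. Ckb, the brain-type creatine kinase, was at 8009 ± 1812 in HFD and 4327 ± 674 in HFD-O304 islets (log2 fold change -0.88, adjusted p = 8.55e-06, edgeR). Ak3, a mitochondrial adenylate kinase, was at 1651 ± 152 and 1242 ± 91.5 (log2 fold change -0.40, adjusted p = 1.41e-05, edgeR). Ampd1 and Nt5c1a of this list had too few reads for the test.

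Of 32 genes of AMPK substrates, 2 were higher and 1 lower in HFD against RD, where 2% of all genes were called higher and 1.54% lower, and 2 were higher and 3 lower in HFD-O304 against HFD, where the shares of all genes were 5.08% and 6.79%. In HFD-O304 against RD 2 were lower, where 0.903% of all genes were. The medians were -0.09, 0.07 and -0.0054, and DESeq2 called 5, 8 and 2. Ppargc1a, a coactivator of mitochondrial genes, was lower in HFD than in RD, by a log2 fold change of -0.86 (adjusted p = 0.00331, edgeR), and higher in HFD-O304 than in HFD by 0.98 (adjusted p = 0.000243, edgeR). Its means were 179 ± 15.7 under RD, 98.0 ± 44.4 under HFD and 194 ± 24.5 under HFD-O304. Tbc1d4, a Rab regulator of glucose transporter traffic, moved the other way, at 0.35 (adjusted p = 0.00782, edgeR) and -0.58 (adjusted p = 1.04e-05, edgeR).

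Txnip, an inhibitor of thioredoxin that rises with glucose, was higher in HFD than in RD, at 16565 ± 9383 against 6831 ± 1149 (log2 fold change 1.27, adjusted p = 0.00113, edgeR). Crtc2, a CREB coactivator, was higher in HFD-O304 than in HFD by 0.37 (adjusted p = 0.000108, edgeR). Gys1, the muscle-type glycogen synthase, was lower in HFD-O304 than in HFD at -0.44 (adjusted p = 5.39e-05, edgeR) and than in RD at -0.34 (adjusted p = 0.00671, edgeR). Eef2k, the kinase of elongation factor 2, was lower in HFD-O304 than in HFD at -0.37 (adjusted p = 0.000387, edgeR), for which it is named after its values were seen, and lower than in RD at -0.33 (adjusted p = 0.00738, edgeR). The 19 calls of pathway genes kept their direction within replicates 1 to 4 and within replicates 5 to 7, where 11 and 5 of them passed (edgeR). They were picked in the fit of all libraries, of which each set is a part, so the sets are no independent check. Of all genes, 2.25% and 1.25% were called in the sets in HFD against RD. These shares were 7.99% and 5.95% in HFD-O304 against HFD and 0.339% and 0.931% in HFD-O304 against RD. Of the calls in HFD against RD, 3 of 4 passed in replicates 1 to 4 and 0 in replicates 5 to 7, with log2 fold changes of 1.70 and 0.29 for Txnip, -1.30 and -0.48 for Ppargc1a, 0.45 and 0.21 for Tbc1d4 and -0.73 and -0.35 for Fnip2. In HFD-O304 against HFD 8 and 5 of 12 passed, with 0.80 and 0.53 for Fnip2, 0.49 and 0.22 for Fnip1, 0.33 and 0.20 for Sesn1, -0.42 and -0.21 for Lamtor2 and 0.20 and 0.21 for Axin1. There Ckb was at -0.90 and -0.88, Ak3 at -0.46 and -0.34, Ppargc1a at 1.51 and 0.47, Tbc1d4 at -0.64 and -0.50, Crtc2 at 0.41 and 0.32, Gys1 at -0.59 and -0.25 and Eef2k at -0.39 and -0.36. In HFD-O304 against RD none of 3 passed in either set, with -0.44 and -0.22 for Gys1, -0.45 and -0.18 for Eef2k and -0.70 and -0.72 for Ppp1r3c. These are transcript levels, and AMPK acts on the proteins of this list by phosphorylation, which was not measured.

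**Figure D5:**
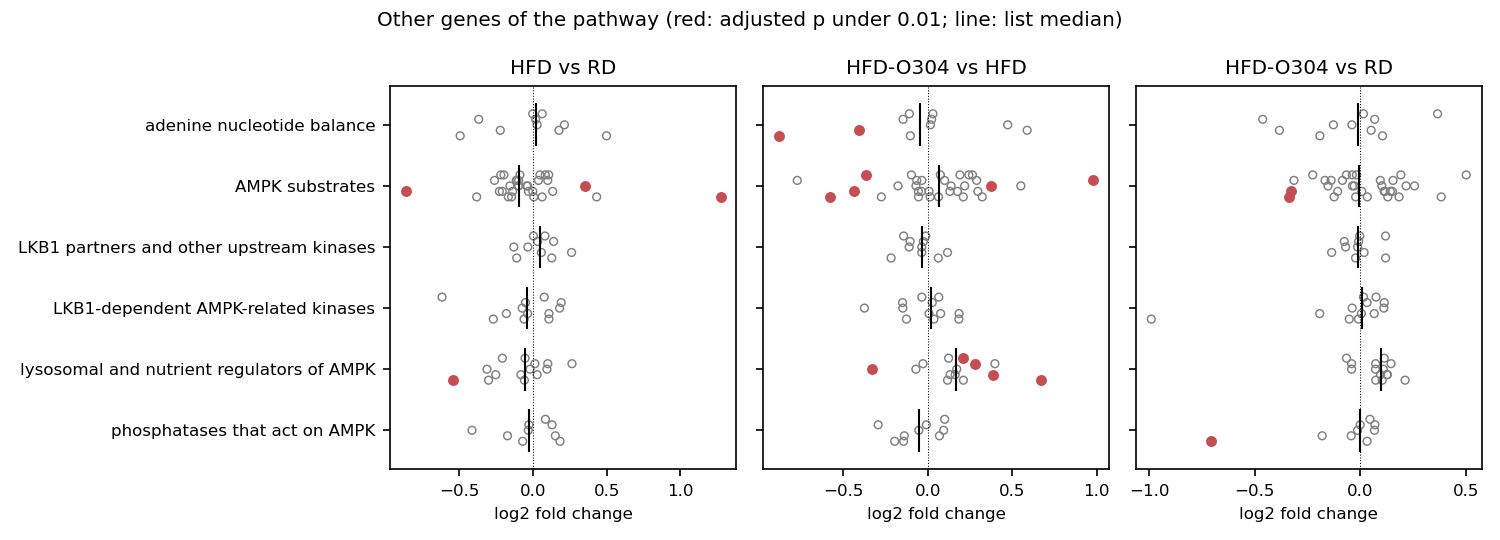
log2 fold change of each tested gene in 6 lists of the pathway, for the 3 comparisons. Red points passed an adjusted p under 0.01 (edgeR), grey circles did not, and the black line is the median of a list. The lysosomal and nutrient regulators have a median of 0.17 in HFD-O304 against HFD, with 4 of 14 genes higher past the threshold.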

How the data were processed

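RNA-seq of islets was analysed in 7 RD, 7 HFD and 7 HFD-O304 samples, grouped by their labels. HFD-O304 replicate 1 was placed by its title, against its diet field, and HFD replicate 3 was placed by its diet field. The authors checked 50-base read pairs with FastQC, aligned them to GRCm38 with STAR and Ensembl version 96, and deposited unnormalised counts of reads per gene for each sample, unstranded and by strand. The count of the strand that held 28.8 to 36.3 times the reads of the other was used. The 4 rows of each file that name no gene, with 18.5 to 24.9% of the reads in the column used, were left out. All 55536 identifiers matched GENCODE M21.

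Genes with at least 10 reads over all samples were kept. Groups were compared with edgeR 4.0.16 (TMM, quasi-likelihood, 3 groups in 1 fit, no covariates, R 4.3.3) at an adjusted p under 0.01. DESeq2 1.42.0, the tool of the authors, was an alternative, and its size factors gave the normalised counts. Intervals are 95%. Ratios used a pseudocount of 0.5 and an adjusted p under 0.05 in exact permutation tests. Log2 CPM used a prior count of 2. Tables were made in pandas 2.3.3 and numpy 2.4.6 and figures in matplotlib 3.10.9 (Python 3.11.15). Both tests were tested on simulated data.

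The members, lists and tests were chosen with earlier results of these data known. Named genes are the 9 members, the called genes of each list (at most 4 with the smallest adjusted p in a comparison) and the 3 genes most like Prkaa1, Prkaa2 and Prkab2. Single genes that only DESeq2 called are in part not reported here. Of further marker lists, the PP-cell list (1 gene) and the acinar list (13 genes) had no called gene in any comparison by edgeR or DESeq2 and none at an unadjusted p under 0.05. By edgeR, in HFD-O304 against HFD 3 of 6 duct markers and 1 of 6 macrophage markers were higher, and 2 of 6 endothelial, 4 of 6 stellate and 2 of 6 Schwann cell and neuron markers were lower. In HFD against RD 1 stellate marker was higher, and in HFD-O304 against RD 1 duct marker was higher and 1 endothelial, 1 stellate and 1 Schwann cell and neuron marker were lower. Of 10 β-cell markers, 1 was higher and 2 lower in HFD against RD, and 3 were higher and 3 lower in HFD-O304 against HFD. Of all genes, edgeR called 3.54% in HFD against RD, 11.9% in HFD-O304 against HFD and 1.31% in HFD-O304 against RD. DESeq2 called 2 duct, 1 endothelial and 1 macrophage marker in HFD against RD. In HFD-O304 against HFD it called 4 endothelial and 2 macrophage markers. In HFD-O304 against RD it called 1 α-cell, 1 macrophage, 2 stellate and 2 Schwann cell and neuron markers. It called 6.46%, 14.9% and 2.67% of all genes in these comparisons. Acinar markers summed to between 20.9 and 8828 CPM, and a fit with their level as a covariate was an alternative. No 2 samples agreed within sampling noise (lowest chi-square per gene 9.88). Samples are separate pools, and their number sets the precision of the tests.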

Additional observations from a re-analysis of the deposited data

Results flagged for a closer look

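In 33 sets of 7 libraries (8 genes and 3 paralog ratios in 3 groups), the library at either end was compared with the rest by its gap over the range, with a critical value of 0.568, which chance passes in about 1 of 20 sets. Prkab1 in RD replicate 6 was at 1099 normalised counts, below the other RD libraries (gap over range 0.571). The log2 ratio of Prkab1 to Prkab2 in HFD replicate 4 was 1.87, above the other HFD libraries (gap over range 0.697), and this library had the lowest Prkab2 count of its group. Without this library the differences of the ratio were 0.34 for HFD against RD and -0.69 for HFD-O304 against HFD (adjusted p = 0.00131 for each, exact permutation test).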

How the results depend on the processing

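Of 768 values of single members under an alternative, 700 kept direction and call, 31 lost a call, 1 gained one and 36 changed sign, and Prkab2 and Prkag2 kept their calls in HFD-O304 vs HFD under all alternatives run. The members called in HFD vs RD numbered 1 with no filter on low counts, with only the 2 groups in the fit and in replicates 1 to 4, and 0 in replicates 5 to 7. Of all genes tested, 2.68%, 2.44%, 2.25% and 1.25% were called in these fits, in that order, and 3.54% in the main fit. In HFD-O304 vs RD 0 were called in either set, which hold fewer samples and where 0.339% and 0.931% of all genes were called. Without each library in turn the counts ranged from 1 to 3 in HFD vs RD, 2 to 3 in HFD-O304 vs HFD and 0 to 1 in HFD-O304 vs RD. The shares of all genes called then ranged from 2.18% to 5.89%, from 9.75% to 13.2% and from 0.817% to 1.56%. Signs changed only among members that had not passed. With no filter, the log2 fold changes were 0.0042 for Prkaa2 in HFD-O304 vs HFD and 0.0015 for Prkab1 in HFD-O304 vs RD, and the acinar covariate gave 0.00017 for Prkaa2 in HFD-O304 vs HFD. Replicates 1 to 4 gave 0.0085 for Prkaa2 in HFD vs RD, -0.021 for Prkab1 in HFD-O304 vs HFD and -0.016 for Stk11 in HFD-O304 vs RD. Replicates 5 to 7 gave 0.086 for Prkab1 and 0.11 for Stk11 in HFD vs RD, 0.0088 for Prkaa2 in HFD-O304 vs HFD, and -0.073 for Prkaa1, 0.15 for Prkab1 and 0.11 for Camkk2 in HFD-O304 vs RD. Without each library, Stk11 in HFD vs RD ranged from -0.061 to 0.018, Prkaa2 and Prkab1 in HFD-O304 vs HFD from -0.034 to 0.036 and from -0.0066 to 0.048, and Prkab1 in HFD-O304 vs RD from -0.038 to 0.016.

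For the ratios, leaving out a library gave -0.12 to -0.071 for Prkaa1 to Prkaa2 in HFD vs RD, 0.11 to 0.16 for it in HFD-O304 vs RD and -0.029 to 0.029 for Prkag1 to Prkag2 in HFD-O304 vs RD, which unstranded counts put at -0.011. Replicates 1 to 4 gave 0.11 for Prkaa1 to Prkaa2 in HFD-O304 vs RD (adjusted p = 0.129, exact permutation test). In replicates 5 to 7 no ratio can pass. There Prkaa1 to Prkaa2 was 0.19 in HFD-O304 vs HFD and 0.16 in HFD-O304 vs RD, Prkab1 to Prkab2 was 0.38 in HFD vs RD, -0.59 in HFD-O304 vs HFD and -0.21 in HFD-O304 vs RD, and Prkag1 to Prkag2 was 0.26, -0.30 and -0.041. Shares with the longest transcript were 84.4%, 87.7% and 81.0% for Prkab1 and 66.0%, 71.1% and 66.0% for Prkag1 in RD, HFD and HFD-O304, and with unstranded counts 34.4%, 40.3% and 34.3% for Prkag1. The causes of these changes were not tested beyond the settings themselves.

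Whether the replicate numbers pair the samples is not settled by the values. Same-numbered deviations correlated at 0.199, 0.137 and 0.294 on average over 13216 genes in HFD vs RD, HFD-O304 vs HFD and HFD-O304 vs RD. Of 7 pairs 4, 5 and 6 were over 0.1, and 2 or 3 of 7 samples correlated best with their own number. The main tests used neither the numbers nor the library sets. In the main fit 963, 3230 and 356 of all genes were called. With the replicate number as a block 1577, 3763 and 543 were called. With the library set (replicates 1 to 4 or 5 to 7) as a covariate these counts were 1611, 3795 and 543. With the replicate block the same members were called, and Prkaa2 in HFD-O304 vs HFD was at 8.18e-05. In the exact paired test of the ratios, the replicate block lost Prkaa1 to Prkaa2 in HFD-O304 vs RD (0.13, adjusted p = 0.1055, exact test) and changed no other call.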
